A study of Homo sapiens with 5 samples.

Results

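The mitochondrial ribosomal protein genes are the nuclear genes whose symbols begin with MRPL or MRPS followed by a digit. All protein-coding genes of RefSeq (GRCh38.p14) that fit this pattern were taken, which gave 77 members, 49 MRPL and 28 MRPS genes, of 20037 protein-coding genes on the nuclear chromosomes. Binding was read from ChIP-seq peak lists in BT549, a human breast cancer cell line. A gene counted as having a peak when the nearest base of the peak lay within 1 kb of either gene end.

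Chromatin was precipitated with an antibody against IRF3, a transcription factor activated by sensors of viral RNA, or against Smad3, which carries the TGF-beta signal to the genome. All cells carried a stable lentiviral insert, either constitutively active Smad3 (caSmad3) or the control HA. There were 5 groups of 1 library each. IRF3 was precipitated from caSmad3 cells and from HA cells, both transfected with polyI:C, an analogue of double-stranded RNA, and neither given TGF-beta. Smad3 was precipitated from caSmad3 cells transfected with polyI:C and not given TGF-beta, from HA cells transfected with polyI:C and given TGF-beta (1 ng/ml for 1.5 h), and from mock-transfected HA cells given the same TGF-beta. For Smad3, therefore, caSmad3 and the lack of TGF-beta cannot be told apart. With 1 library per group no difference between libraries could be tested, and each 95% Clopper-Pearson interval covers only the error of counting genes. The intervals treat genes as independent, although neighbouring genes can share a peak.

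The lists held 8067 IRF3 peaks in caSmad3 cells and 4125 in HA cells, and 6041 Smad3 peaks in caSmad3 cells, 786 in HA cells after polyI:C and 353 in HA cells after mock transfection. The narrowest peak had 99 bases in every list. The lists give positions and no score, and read depth is unknown, so a missing peak does not show that a site was unbound.

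Mitochondrial ribosomes translate the few messenger RNAs made inside mitochondria, which encode core subunits of the respiratory chain. Their RNA comes from the mitochondrial genome, but every protein of the large subunit (mostly MRPL genes) and the small subunit (mostly MRPS genes) is encoded in the nucleus and imported. The genes are expressed in most tissues, generally from CpG-rich promoters, and many lie head to head with a neighbour.

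Most mitochondrial ribosomal protein genes had an IRF3 peak at a gene end in caSmad3 cells, and fewer did in HA cells. In caSmad3 cells 61 of 77 had an IRF3 peak (79.2%, 68.5 to 87.6), where 30.9% of the other protein-coding genes had one. In HA cells 38 of 77 had one (49.4%, 37.8 to 61.0), where the other genes had 16.9%. Both member shares lay above the background share, which fell outside the interval in each library. Smad3 peaks were less widespread. In caSmad3 cells 21 of 77 members had a Smad3 peak (27.3%, 17.7 to 38.6), with 10.5% of the other genes. With only the wider 50% of each list's peaks the members numbered 20 of 77 for IRF3 in HA cells (26.0%; other genes 9.17%) and 8 of 77 for Smad3 in caSmad3 cells (10.4%; other genes 5.32%). No interval was computed for these shares. Whether the small Smad3 count lay above the background was therefore not assessed. In HA cells 0 members had a Smad3 peak, both after polyI:C and after mock transfection. The backgrounds there were 0.887% after polyI:C and 0.245% after mock transfection, and 3 counts would make 3.90% of the members. At such backgrounds an absence among 77 genes cannot be told from the rest of the genes.

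**Figure D1:**
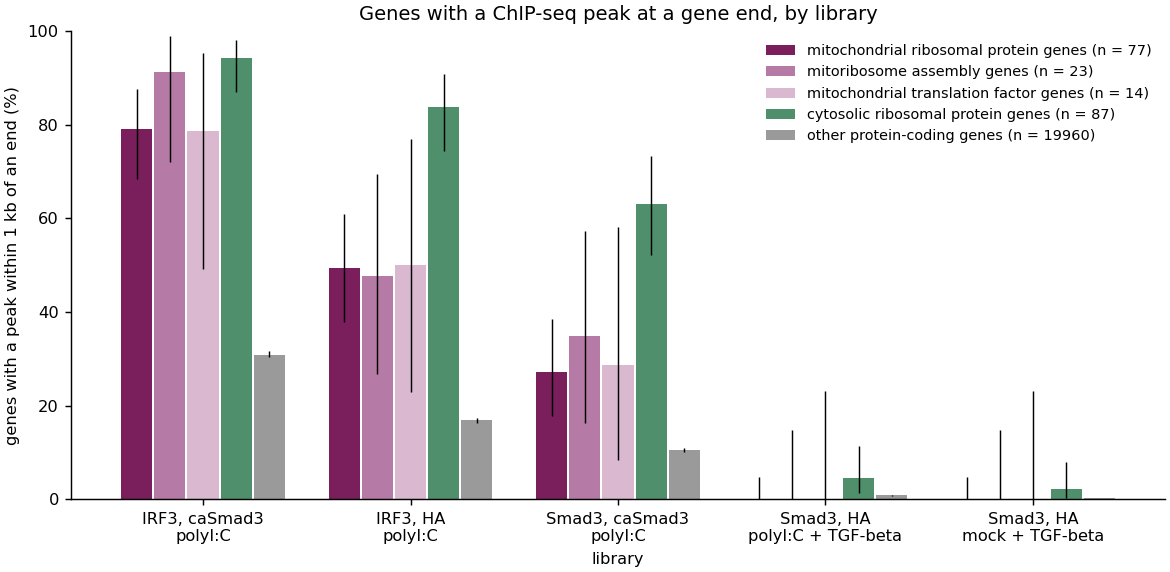
Share of genes with a peak within 1 kb of either end (y axis, percent) in the 5 libraries (x axis), for mitochondrial ribosomal protein genes, 2 groups of related genes, cytosolic ribosomal protein genes and all other protein-coding genes; error bars are 95% Clopper-Pearson intervals. Members reach 79.2% for IRF3 in caSmad3 cells, 49.4% for IRF3 in HA cells and 27.3% for Smad3 in caSmad3 cells, above the grey bars at 30.9%, 16.9% and 10.5%.

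The IRF3 lists were nested at these genes. Of the 77 members, 37 had an IRF3 peak in both lists (48.1%; other genes 15.9%), 24 in caSmad3 cells only (31.2%; other genes 15.1%), 1 in HA cells only (1.30%; other genes 0.967%) and 15 in neither (19.5%; other genes 68.1%). Of the 38 members with a peak in HA cells, 37 also had one in caSmad3 cells (97.4%, 86.2 to 99.9). The other genes showed the same nesting, at 94.3%. Of the members with a peak in caSmad3 cells 60.7% were also in the HA list (47.3 to 72.9), beside 51.4% of the other such genes, a value inside the interval.

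By kind of protein, MRPS genes had IRF3 peaks in 25 of 28 cases in caSmad3 cells (89.3%, 71.8 to 97.7) and in 13 in HA cells (46.4%, 27.5 to 66.1). MRPL genes had them in 36 of 49 cases in caSmad3 cells (73.5%, 58.9 to 85.1) and in 25 in HA cells (51.0%, 36.3 to 65.6). The intervals of the MRPL and MRPS genes overlapped in both libraries. Among other protein-coding genes the IRF3 shares were 30.9% in caSmad3 cells and 16.9% in HA cells. Smad3 peaks in caSmad3 cells were listed at 14 of 49 MRPL genes (28.6%, 16.6 to 43.3) and 7 of 28 MRPS genes (25.0%, 10.7 to 44.9). The other protein-coding genes had 10.5%, just below the MRPS interval. MRPS18A and MRPS30 carry small-subunit names but their proteins sit in the large subunit. The proteins can also be divided by origin, into 48 with a bacterial relative and 29 found only in mitochondria. Genes with a bacterial relative had IRF3 peaks in 39 of 48 cases in caSmad3 cells (81.2%) and 25 in HA cells (52.1%). The mitochondria-specific genes had 22 of 29 in caSmad3 cells (75.9%) and 13 in HA cells (44.8%), again with overlapping intervals (67.4 to 91.1 and 56.5 to 89.7 in caSmad3 cells).

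**Figure D2:**
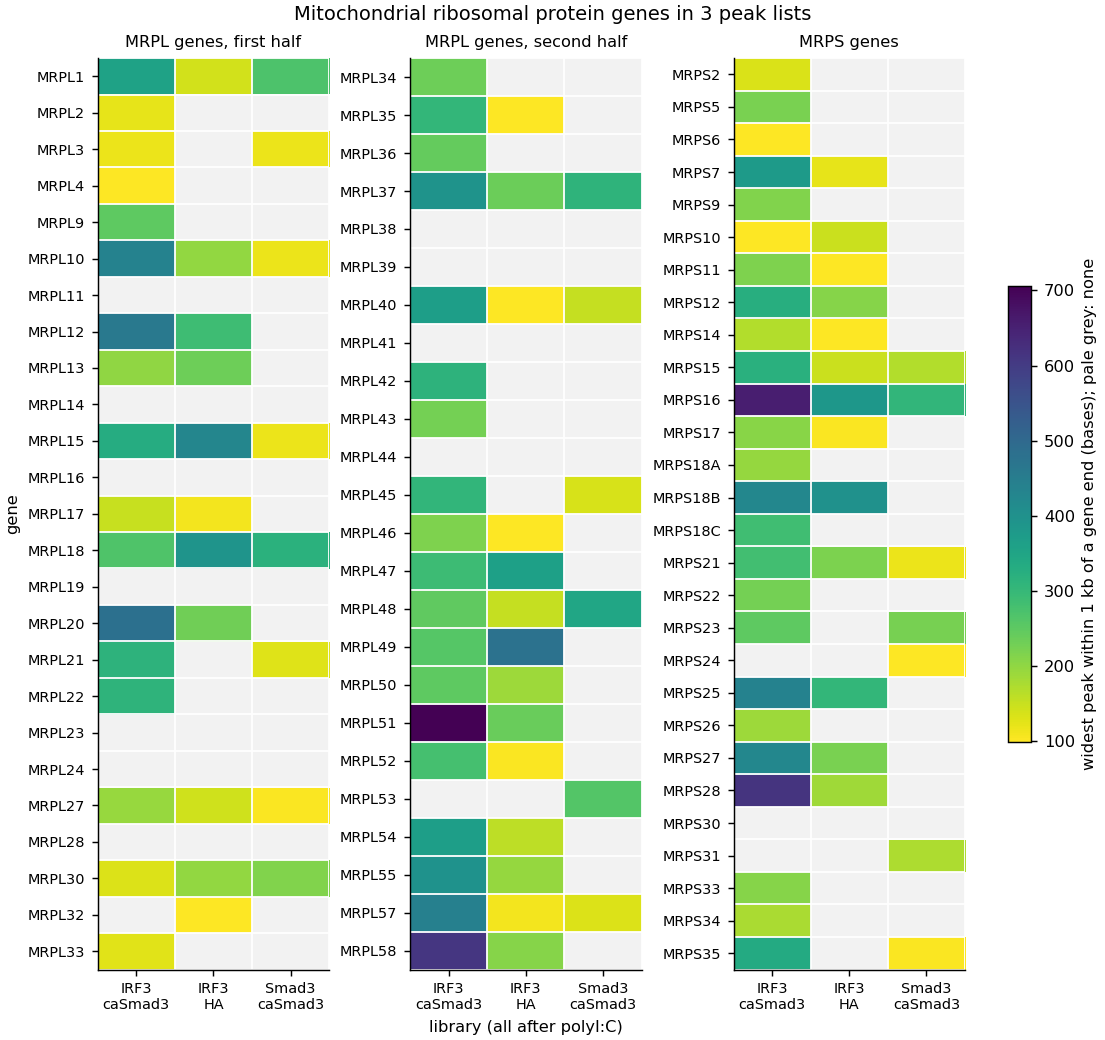
Widest peak within 1 kb of a gene end (colour, bases) for each of the 77 genes (rows) in the 3 lists that had any (columns: IRF3 in caSmad3 cells, IRF3 in HA cells, Smad3 in caSmad3 cells); pale grey means no peak. The first column is filled for 61 genes, the second for 38 and the third for 21, and the widest peak is 706 bases at MRPL51.

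The widest IRF3 peaks of the group lay over the start of MRPL51, a mitochondria-specific protein of the large subunit, and of MRPS16, a small-subunit protein with a bacterial relative. At MRPL51 (chromosome 12) the caSmad3 list had a peak of 706 bases (6493133 to 6493838) and a second of 321 bases, and the HA list had peaks of 215 bases (6493100 to 6493314) and 238 bases. The wide caSmad3 peak covered the transcript start and reached past it on both sides, while the HA peak over the start was narrower. At MRPS16 (chromosome 10) the caSmad3 peak had 654 bases (73252373 to 73253026) and the HA peak 385 bases (73252582 to 73252966), which lay wholly inside it. MRPS28 on chromosome 8 had caSmad3 peaks of 614 and 120 bases and HA peaks of 156, 185 and 177 bases. TPD52 lies within 1 kb of this end, and RefSeq lists a read-through gene, TPD52-MRPS28, over both. MRPL58, whose protein releases stalled peptides from the ribosome, had caSmad3 peaks of 610 and 333 bases and an HA peak of 209 bases.

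Further wide caSmad3 peaks covered the start of MRPL20, with 483 bases against 230 bases in HA cells, and of MRPL12, with 461 against 287 bases. MRPL12 is a stalk protein that also binds the mitochondrial RNA polymerase. MRPL57 had 441 bases in caSmad3 cells and 110 in HA cells, MRPL10 438 and 197 bases, and MRPS25 436 and 305 bases. MRPS18B had 424 bases in caSmad3 cells and 399 in HA cells, and MRPS27 had 424 and 221 bases. The MRPS18B peaks did not cover its start. They lay 415 bases upstream of it in caSmad3 cells and 441 in HA cells, within 1 kb of PPP1R10. At all of these genes the caSmad3 peak was the wider of the pair.

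The opposite held at 7 of the 37 members in both lists. MRPL49, which lies head to head with FAU, a gene for a cytosolic ribosomal protein, had the widest HA peak of the group, with 478 bases over its start (chromosome 11, 65122071 to 65122548). In caSmad3 cells MRPL49 had peaks of 158 bases (65121920 to 65122077) and 260 bases (65122261 to 65122520) on either side of the start, and both overlapped the HA peak. MRPL15 had 329 bases in caSmad3 cells and 428 in HA cells, MRPL18 267 and 393 bases, and MRPL47 291 and 362 bases. MRPL13 (199 and 234 bases), MRPL30 (132 and 197 bases) and MRPS10 (101 and 148 bases) had smaller gaps. The remaining 30 members had the wider peak in caSmad3 cells (81.1%), as did 84.5% of the 3173 other genes with a peak in both lists. The median widest peak of the 37 members was 325 bases in caSmad3 cells and 196 in HA cells, beside 348 and 205 bases for the other genes. The widest peaks of a gene need not lie at the same site. Of 38 caSmad3 peaks near members that overlapped an HA peak, 29 were the wider (76.3%; peaks near other genes 81.5%).

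**Figure D3:**
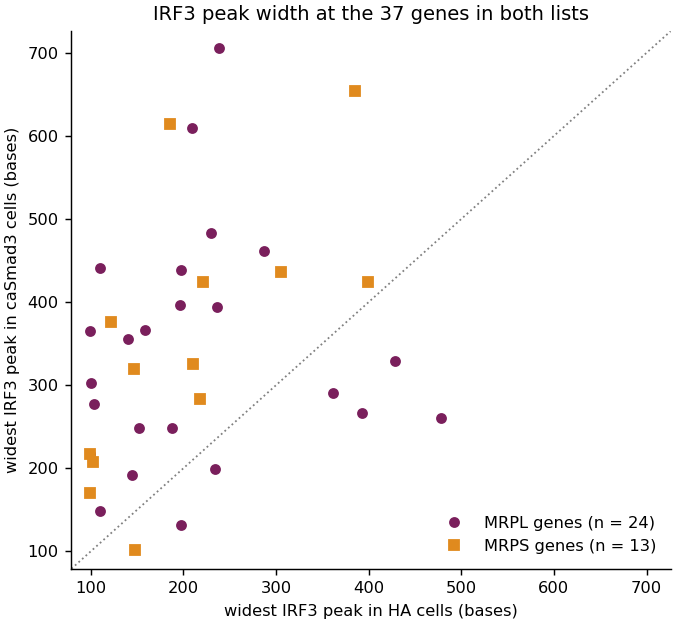
Widest IRF3 peak in caSmad3 cells (y axis, bases) against that in HA cells (x axis, bases) at the 37 members with a peak in both lists, with MRPL and MRPS genes marked; the dotted line marks equal width. 30 genes lie above the line and 7 below it.

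Peaks of the lists lay at the same places. In 36 of the 37 members a caSmad3 peak overlapped an HA peak by at least 1 base (97.3%; other genes 97.5%). The exception was MRPS7, a small-subunit protein of the bacterial core, with a caSmad3 peak of 376 bases ending 56 bases before the start (chromosome 17, 75261448 to 75261823) and an HA peak of 122 bases over the start (75261850 to 75261971). When the overlap had to cover 50% of both peaks, 15 of 37 members remained (40.5%; other genes 61.5%), so that at members the peaks were often of unequal width or shifted. Several IRF3 peaks within 1 kb were listed for 12 members in caSmad3 cells (15.6%; other genes 6.97%) and 4 in HA cells (5.19%; other genes 2.20%). Of genes with any IRF3 peak they made up 19.7% of members and 22.5% of other genes in caSmad3 cells, and 10.5% and 13.1% in HA cells. In caSmad3 cells these were MRPL18, MRPL27, MRPL30, MRPL40, MRPL45, MRPL49, MRPL51, MRPL54, MRPL58, MRPS14, MRPS23 and MRPS28, and in HA cells MRPL51, MRPL54, MRPL55 and MRPS28. At MRPL40 (365 and 111 bases), MRPL18 (267 and 112 bases) and MRPL27 (192 and 118 bases) the caSmad3 peaks lay on either side of the start without covering it. At MRPL30 (132 and 110 bases), MRPL45 (307 and 104 bases), MRPS14 (170 and 150 bases) and MRPS23 (249 and 132 bases) the first covered the start and the second lay upstream. MRPL54 had 366 and 146 bases in caSmad3 cells and 159 and 99 bases in HA cells, and MRPL55 had 196 and 119 bases in HA cells, beside a single peak of 397 bases in caSmad3 cells.

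The 24 members listed in caSmad3 cells only had narrower peaks than those in both lists, with a median widest peak of 223 bases (99 to 334), against 325 bases (101 to 706) for the 37. Among other genes the medians were 189.5 and 348 bases. The widest was at MRPS35, a mitochondria-specific small-subunit protein, with 334 bases over the start (chromosome 12, 27710556 to 27710889). MRPL21 and MRPL42 had 313 bases each, MRPL22, which lines the exit tunnel, 312 bases, and MRPL45, which helps to hold the ribosome at the inner membrane, 307 bases. MRPS18C had 284 bases, MRPL9 and MRPS23 249 bases each, MRPL36 243 bases and MRPL34, near the finish of its transcript, 232 bases. The other 14, with 99 to 225 bases, were MRPL2, MRPL3, MRPL4, MRPL33, MRPL43, MRPS2, MRPS5, MRPS6, MRPS9, MRPS18A, MRPS22, MRPS26, MRPS33 and MRPS34. At MRPL36 and MRPL34 an HA peak lay beyond the limit, 1394 bases from MRPL36 and 2545 bases from MRPL34.

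MRPL32, a zinc-binding protein that is cut to its mature form after import, was the only member whose IRF3 peak was listed in HA cells alone. The peak was 100 bases wide (chromosome 7, 42932399 to 42932498) and began 23 bases after the start of MRPL32, which is head to head with the proteasome gene PSMA2. It was 1 base wider than the narrowest peak of the list, so the pattern rests on 1 narrow peak.

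Smad3 peaks of caSmad3 cells lay close to starts and mostly within IRF3-bound ends. Of the 21 members with a Smad3 peak, 18 also had an IRF3 peak in caSmad3 cells (85.7%, 63.7 to 97.0; other genes 84.5%). Both factors were thus listed at 23.4% of the members and 8.89% of the other genes. At all 18 members the Smad3 peak shared at least 1 base with IRF3 (100%, 81.5 to 100), as it did at 87.5% of the 1774 other genes with both. An overlap of 50% of both peaks was met at 6 of the 18 (33.3%; other genes 32.8%). Among members with an IRF3 peak in caSmad3 cells 29.5% had a Smad3 peak (18.5 to 42.6), and among other such genes 28.7%. Among genes without an IRF3 peak there, 3 of 16 members (18.8%, 4.05 to 45.6) and 2.37% of other genes had a Smad3 peak. The background share lay inside the members' interval for genes with an IRF3 peak and below it for genes without. The latter rests on 3 members, among them MRPS24 with a peak of 99 bases, the narrowest width of the list.

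The widest Smad3 peak was at MRPL48, a mitochondria-specific large-subunit protein, with 347 bases over the start (chromosome 11, 73787792 to 73788138). The IRF3 peaks of MRPL48 had 248 bases in caSmad3 cells and 152 in HA cells, and both lay downstream of the start, within 305.5 and 197.5 bases of it by their centres. MRPL18, which binds 5S RNA in its bacterial form, had a Smad3 peak of 318 bases, MRPL37 312, MRPS16 306, MRPL1 269 and MRPL30 214 bases. MRPS23 had 223 bases, MRPS15 170, MRPL40 153, MRPL45 135, MRPL57 130 and MRPL21 129 bases. MRPL3, near the catalytic centre in bacterial ribosomes, had 116 bases, as did MRPL10, MRPL15 and MRPS21, and MRPS35 and MRPL27 had 103 and 102 bases. At 14 of the 18 members with both factors the Smad3 peak was narrower than the widest IRF3 peak of caSmad3 cells. At MRPL18, MRPL30 and MRPL48 it was wider, and at MRPL3 it was equal.

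Smad3 without IRF3 in caSmad3 cells was listed at 3 of the 77 members (3.90%, 0.811 to 11.0), an interval that held the 1.63% of other genes. They were MRPL53, with 261 bases over its start (chromosome 2, 74472461 to 74472721), MRPS31 with 174 bases ending 28 bases from the start, and MRPS24 with 99 bases, 558 bases before it. These 3 had no IRF3 peak within 1 kb in HA cells either. At MRPL53 IRF3 peaks were listed 6433 bases away in caSmad3 cells and 6427 bases away in HA cells.

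No peak within 1 kb was listed in any of the 5 libraries for 12 members (15.6%; other genes 66.5%), and for 10 of them none within 10 kb (other genes 56.7%). The 10 were MRPL11, MRPL14, MRPL16, MRPL19, MRPL23, MRPL28, MRPL38, MRPL39, MRPL41 and MRPS30. MRPL11 belongs to the site where elongation factors bind in bacterial ribosomes. The other 2, MRPL24 and MRPL44, had IRF3 peaks of caSmad3 cells 1594 and 5517 bases and Smad3 peaks 1159 and 6478 bases from a gene end. The farthest members within the limit for IRF3 in caSmad3 cells were MRPL34 at 781 bases from a gene end and MRPS2 at 729, and for Smad3 MRPS24 at 558. The MRPL34 peak was near the finish of the transcript, 13258 bases from its start. The MRPS2 peak was 12 bases from the transcript start. For IRF3 in HA cells the farthest was MRPS18B at 441 bases, so that all 38 members lay within 500 bases. Widening the limit to 10 kb added 3 members in caSmad3 cells (64 of 77; other genes 39.0%) and 3 in HA cells (41 of 77; other genes 22.4%) for IRF3. For Smad3 it gave 26 of 77 in caSmad3 cells (other genes 16.7%) and still 0 in HA cells, both after polyI:C (other genes 1.81%) and after mock transfection (other genes 0.591%).

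Transcript starts came from the RefSeq promoter table, which matched 69 of the 77 members. MRPL2, MRPL10, MRPL13, MRPL15, MRPL21, MRPL23, MRPL35 and MRPS28 were not matched. Of 65 pairs of a matched member and an IRF3 peak in caSmad3 cells, 63 lay within 1 kb of the start (96.9%; other genes 92.0%), and in HA cells 36 of 36 (other genes 92.3%). The peak covered the start itself in 31 of the 65 pairs (47.7%; other genes 42.9%) in caSmad3 cells and 14 of 36 (38.9%; other genes 42.8%) in HA cells. Centres within 1 kb scattered around the start, with a median of -10 bases in caSmad3 cells and 11.2 bases in HA cells, where negative is upstream. Smad3 peaks covered the start in 13 of 18 pairs (72.2%, 46.5 to 90.3), beside 29.3% of pairs at other genes. Most Smad3 peaks of the group thus lay over a start, whereas at other genes most did not cover it.

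**Figure D4:**
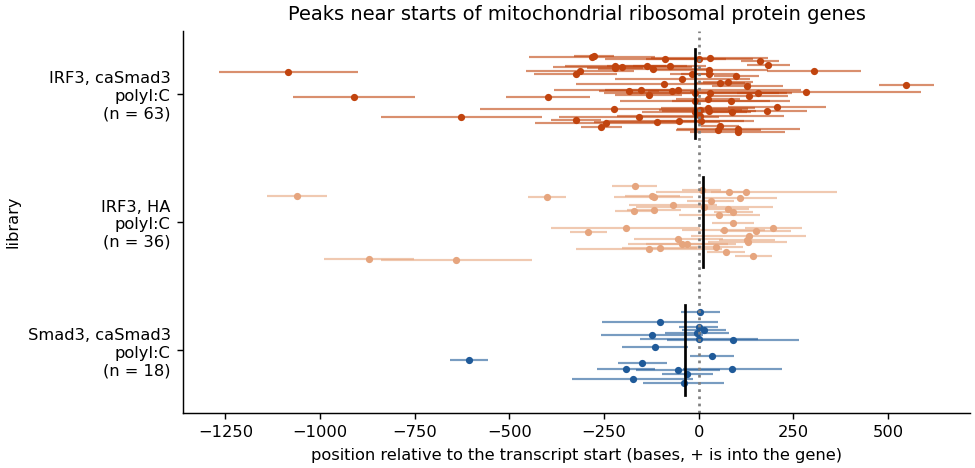
Peaks within 1 kb of the transcript start of matched members, as points for the peak centres with lines for the peak widths (x axis, bases from the start, positive into the gene), by library (y axis, points shifted at random within a row); black bars are medians. The medians are -10, 11.2 and -34.8 bases for IRF3 in caSmad3 cells, IRF3 in HA cells and Smad3 in caSmad3 cells.

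The promoters of 5 members are given because they carry the widest peaks of each pattern. MRPL51 (chr12:6493233-6493462, minus strand) has the widest IRF3 peak in caSmad3 cells and MRPL49 (chr11:65121983-65122212, plus strand) the widest in HA cells. MRPS35 (chr12:27710632-27710861, plus strand) has the widest of the genes listed in caSmad3 cells only, and MRPL32 (chr7:42932176-42932405, plus strand) the only peak listed in HA cells alone. MRPL48 (chr11:73787674-73787903, plus strand) has the widest Smad3 peak. Each stretch runs 5′ to 3′ along the gene from 200 bases before the start to 30 bases from it onwards (RefSeq, GRCh38.p14), and capitals mark matches to the 13 motifs searched, on either strand.
MRPL51: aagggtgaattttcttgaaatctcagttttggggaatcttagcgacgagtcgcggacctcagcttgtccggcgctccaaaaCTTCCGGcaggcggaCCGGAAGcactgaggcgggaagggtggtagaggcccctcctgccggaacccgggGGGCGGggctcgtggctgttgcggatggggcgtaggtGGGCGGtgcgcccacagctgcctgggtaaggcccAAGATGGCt
MRPL49: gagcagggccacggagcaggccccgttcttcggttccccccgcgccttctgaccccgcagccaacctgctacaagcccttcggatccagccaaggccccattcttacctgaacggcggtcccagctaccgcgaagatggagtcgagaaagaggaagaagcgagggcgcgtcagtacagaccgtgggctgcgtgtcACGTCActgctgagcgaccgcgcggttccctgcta
MRPS35: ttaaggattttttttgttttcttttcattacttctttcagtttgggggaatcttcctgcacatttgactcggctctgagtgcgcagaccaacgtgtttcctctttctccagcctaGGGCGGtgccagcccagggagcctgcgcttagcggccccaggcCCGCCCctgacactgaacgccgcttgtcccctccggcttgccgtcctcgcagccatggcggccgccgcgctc
MRPL32: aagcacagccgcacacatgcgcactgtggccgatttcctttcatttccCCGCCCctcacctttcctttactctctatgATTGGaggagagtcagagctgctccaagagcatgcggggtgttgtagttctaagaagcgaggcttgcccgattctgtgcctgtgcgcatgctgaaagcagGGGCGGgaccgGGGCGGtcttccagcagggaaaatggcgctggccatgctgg
MRPL48: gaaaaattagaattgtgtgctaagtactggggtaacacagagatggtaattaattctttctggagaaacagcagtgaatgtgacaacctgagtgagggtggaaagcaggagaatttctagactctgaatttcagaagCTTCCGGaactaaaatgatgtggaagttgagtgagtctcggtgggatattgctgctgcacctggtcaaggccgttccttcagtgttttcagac
Of the 230 bases shown for MRPL51, 230 lay under the caSmad3 IRF3 peak and 82 under the HA IRF3 peak. The MRPL49 stretch had 95 bases under caSmad3 peaks and 142 under the HA peak. The MRPS35 stretch had 230 bases under the IRF3 peak and 80 under the Smad3 peak of caSmad3 cells, MRPL32 7 bases under the HA peak, and MRPL48 112 bases under the Smad3 peak.

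Matches in the stretches were few and of general promoter types. MRPL51 holds the ETS letters CCGGAAG on both strands (first bases at -119 and -104 from the start), the SP/KLF letters GGGCGG at -50 and -13, and the YY1 letters AAGATGGC at 21. MRPL48 holds CCGGAAG on the opposite strand at -63, under the Smad3 peak and under no IRF3 peak. MRPS35 and MRPL32 hold GGGCGG or its reverse, MRPL32 also the NFY letters CCAAT in reverse at -122, and MRPL49 the short CRE letters TGACGT, in reverse, over its start. The ISRE, to which IRF factors bind, and the Smad letters CAGACA and GTCTAGAC were absent from these 5 stretches. Whole promoters of other genes held them in 3.18%, 14.6% and 0.222% of cases, so absence from 5 shorter stretches carries little information.

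Over whole promoters, from 250 bases before to 50 after the start, 2 motifs were more frequent in the 69 matched members than in 15773 other promoters. The ETS letters CCGGAAG were found in 29 of 69 (42.0%, 30.2 to 54.5), beside 14.1% of the others. The YY1 letters AAGATGGC were found in 20 of 69 (29.0%, 18.7 to 41.2), beside 3.80%. ETS matches had a median first base of -22, while 15 of the 21 YY1 matches began at or after the start (median 9), on the strand of the gene in 17 of 21. Positions and strands were read in members only, so this placement cannot be called particular to them. The SP/KLF letters GGGCGG (60.9%; others 58.5%) and the NFY letters CCAAT (29.0%; others 36.4%) lay near the background. The ISRE was found in 2 of 69 (2.90%; others 3.18%), the Smad letters CAGACA in 6 (8.70%; others 14.6%) and GTCTAGAC in 0 (others 0.222%), and the AP-1 letters TGANTCA in 1 (1.45%; others 5.77%). The NRF1 motif was found in 1 (1.45%; others 1.76%), the CRE letters TGACGTCA in 0 (others 2.61%), the short CRE letters TGACGT, which the full CRE contains, in 5 (7.25%; others 9.68%), the E-box CACGTG in 6 (8.70%; others 8.88%) and the ZNF143 motif in 2 (2.90%; others 1.58%).

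**Figure D5:**
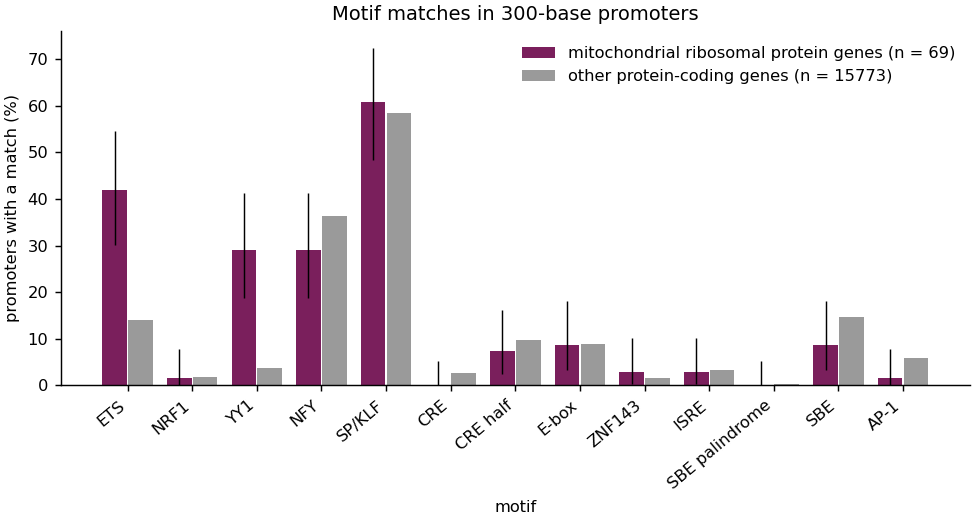
Share of promoters (y axis, percent) with at least 1 match on either strand to each of 13 motifs (x axis) in 69 mitochondrial ribosomal protein genes and 15773 other protein-coding genes; error bars on the member bars are 95% Clopper-Pearson intervals. ETS (42.0% and 14.1%) and YY1 (29.0% and 3.80%) stand apart.

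In caSmad3 cells the gap in IRF3 share between genes with and without each of these motifs was larger among other genes than among members. Members without a motif already had high shares, which left little room for a gap. Whether the gaps differed was not tested. Of other genes with CCGGAAG, 60.6% had an IRF3 peak in caSmad3 cells, against 28.3% without it. Among members the figures were 24 of 29 with it (82.8%, 64.2 to 94.2) and 30 of 40 without it (75.0%, 58.8 to 87.3). For AAGATGGC the other genes gave 58.9% with it and 31.8% without it. The members gave 16 of 20 (80.0%, 56.3 to 94.3) and 38 of 49 (77.6%, 63.4 to 88.2). The 28 members with neither motif had IRF3 peaks in 21 cases in caSmad3 cells (75.0%, 55.1 to 89.3) and 13 in HA cells (46.4%, 27.5 to 66.1), beside 27.4% and 14.8% of other genes with neither. In HA cells IRF3 peaks were listed at 14 of 29 members with CCGGAAG (48.3%) and 19 of 40 without it (47.5%), and at 12 of 20 with AAGATGGC (36.1 to 80.9%) and 21 of 49 without it (28.8 to 57.8%). The other genes in HA cells gave 32.8% and 15.4% for CCGGAAG and 33.6% and 17.2% for AAGATGGC. Smad3 peaks of caSmad3 cells lay at 10 of 29 members with CCGGAAG (34.5%; other genes 18.9%) and 8 of 40 without it (other genes 9.79%). For AAGATGGC they lay at 2 of 20 with it (10.0%, 1.23 to 31.7; other genes 20.4%) and 16 of 49 without it (32.7%, 19.9 to 47.5; other genes 10.7%). The share with AAGATGGC rests on 2 members and its interval held that of other genes, so no direction can be read from it. The members' intervals with and without each motif overlapped in all 3 lists.

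The GC content of the members was close to that of other genes. Their promoters had a median GC content of 60.3% (43.3 to 82.0), beside 62.7% for other genes. The share with an IRF3 peak differed with GC content among other genes, and members lay above them in each class. At 50 to 60% GC, 22 of 29 members had an IRF3 peak in caSmad3 cells (75.9%, 56.5 to 89.7; other genes 33.2%) and 15 in HA cells (51.7%, 32.5 to 70.6; other genes 18.5%). At 60 to 70% GC the values were 21 of 25 in caSmad3 cells (84.0%, 63.9 to 95.5; other genes 46.0%) and 14 in HA cells (56.0%, 34.9 to 75.6; other genes 26.6%). At 70% GC and above they were 8 of 12 in caSmad3 cells (66.7%, 34.9 to 90.1; other genes 31.3%) and 2 in HA cells (16.7%, 2.09 to 48.4; other genes 14.3%), so that in HA cells this class was near the background. Below 50% GC there were only 3 members, of which 3 had a peak in caSmad3 cells (other genes 9.84%) and 2 in HA cells (other genes 5.51%).

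Close neighbours were common. Another protein-coding gene ended within 1 kb of an end of 42 of the 77 members (54.5%), and of 28.4% of other genes. Of the 72 IRF3 peaks near members in caSmad3 cells, 39 were also within 1 kb of another gene's end (54.2%), and in HA cells 23 of 42 (54.8%), so these peaks cannot be given to either gene. Every IRF3 peak was so shared at 32 of the 61 members with one in caSmad3 cells and 20 of the 38 in HA cells. The share of shared peaks near other genes was not computed. MRPL46 and MRPS11, a large- and a small-subunit gene that lie head to head on chromosome 15, shared 1 IRF3 peak in each list, of 217 bases in caSmad3 cells and 99 bases in HA cells. Other shared ends paired MRPS12 with SARS2, the gene for mitochondrial seryl-tRNA synthetase, MRPL43 with TWNK, the mitochondrial DNA helicase, MRPL47 with NDUFB5 and MRPL36 with NDUFS6, genes for respiratory complex I. MRPL18 shares its end with TCP1, a chaperonin subunit, MRPL40 with the histone chaperone gene HIRA, and MRPL51 with the condensin gene NCAPD2. Members without such a neighbour had IRF3 peaks in 27 of 35 cases in caSmad3 cells (77.1%, 59.9 to 89.6; other genes without one 23.9%) and 15 in HA cells (42.9%, 26.3 to 60.6; other genes 12.6%). Members with a neighbour had 34 of 42 in caSmad3 cells (81.0%; other genes 48.7%) and 23 in HA cells (54.8%; other genes 27.6%).

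Members lay on 21 chromosomes, with 8 each on chromosomes 1, 2 and 17. Peaks of these lists are denser on chromosomes 3, 8, 9 and 20, where 11 members lie. There, IRF3 was listed at 10 of 11 in caSmad3 cells (90.9%, 58.7 to 99.8; other genes 38.9%) and 6 in HA cells (54.5%, 23.4 to 83.3; other genes 25.0%, inside the interval). On the other chromosomes 51 of 66 had one in caSmad3 cells (77.3%, 65.3 to 86.7; other genes 29.5%) and 32 in HA cells (48.5%, 36.0 to 61.1; other genes 15.4%). The shares outside the peak-dense chromosomes were close to those of the whole group.

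Most other genes of mitochondrial translation also had an IRF3 peak in caSmad3 cells. Protein-coding genes outside the 77 members had 30.9% for IRF3 in caSmad3 cells, 16.9% for IRF3 in HA cells and 10.5% for Smad3 in caSmad3 cells. Of 5 further mitoribosomal proteins with other names, the caSmad3 IRF3 list held 3 (14.7 to 94.7%) and the HA list 2 (5.27 to 85.3%). Both intervals held the background share. CHCHD1 was in both (465 and 176 bases), DAP3 and AURKAIP1 in caSmad3 cells only (99 and 258 bases), GADD45GIP1 in HA cells only (102 bases) and PTCD3 in neither. Smad3 peaks of caSmad3 cells lay at AURKAIP1 (363 bases) and CHCHD1 (119 bases). Of 23 genes for assembly of the mitoribosome, 21 had an IRF3 peak in caSmad3 cells (91.3%, 72.0 to 98.9), 11 in HA cells (47.8%, 26.8 to 69.4) and 8 a Smad3 peak in caSmad3 cells (34.8%). The 10 in caSmad3 cells only were led by YBEY (353 bases), MTG1 (304 bases), ERAL1, which binds the small-subunit rRNA (261 bases), RBFA (213 bases) and MRM2, an rRNA methyltransferase (189 bases). The widest Smad3 peaks of these genes were at MRM1 (417 bases) and MRM3 (358 bases), both rRNA methyltransferases, followed by NSUN4 (236 bases), MTG2 (218 bases) and DDX28 (180 bases). FASTKD2 and C1QBP had no IRF3 peak.

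Of 14 translation factor genes, 11 had an IRF3 peak in caSmad3 cells (78.6%, 49.2 to 95.3) and 7 in HA cells (50.0%, 23.0 to 77.0). MTIF3 (311 bases), MTIF2 (202 bases), GFM2 (190 bases), OXA1L (160 bases) and TSFM (148 bases) were listed in caSmad3 cells only, MTRF1L (169 bases) in HA cells only, and TUFM, the elongation factor Tu, in no list. Smad3 peaks of caSmad3 cells were listed at GFM2 (357 bases), MTRFR (216 bases), TACO1 (208 bases) and MTIF2 (108 bases). Of 17 mitochondrial aminoacyl-tRNA synthetase genes, 10 had an IRF3 peak in caSmad3 cells (58.8%, 32.9 to 81.6) and 7 in HA cells (41.2%, 18.4 to 67.1). Those in caSmad3 cells only included PARS2 (178 bases) and IARS2 (99 bases). Smad3 peaks of caSmad3 cells lay at TARS2 (378 bases) and LARS2 (139 bases), and TARS2 also had one of 237 bases in HA cells given polyI:C. These 2 of 17 genes (11.8%, 1.46 to 36.4) were near the 10.5% of other protein-coding genes in caSmad3 cells. Of 11 genes for upkeep and expression of mitochondrial DNA, 8 had an IRF3 peak in caSmad3 cells (72.7%, 39.0 to 94.0), 7 in HA cells (63.6%, 30.8 to 89.1) and 3 a Smad3 peak in caSmad3 cells. The Smad3 peaks were at POLG (179 bases), the mitochondrial DNA polymerase, TEFM (137 bases) and TFB2M (136 bases), and POLG had one of 102 bases in HA cells given polyI:C. TWNK, with the 225-base peak that it shares with MRPL43, was in caSmad3 cells only. The intervals of all these groups are wide and overlap those of the mitochondrial ribosomal protein genes. For Smad3 in caSmad3 cells the intervals of translation factor genes (8.39 to 58.1%) and mitochondrial DNA genes (6.02 to 61.0%) also held the background share. For Smad3 in HA cells given polyI:C the background was 0.887%.

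Genes for ribosomal proteins of the cytosol, taken as RPL or RPS followed by a digit without the RPS6K kinases, had higher shares. Of 87 such genes, 82 had an IRF3 peak in caSmad3 cells (94.3%, 87.1 to 98.1) and 73 in HA cells (83.9%, 74.5 to 90.9), beside 79.2% and 49.4% for the mitochondrial group. Smad3 peaks of caSmad3 cells lay at 55 of 87 (63.2%, 52.2 to 73.3), beside 27.3%. The intervals of the cytosolic and mitochondrial groups were apart for IRF3 in HA cells and for Smad3 in caSmad3 cells, and overlapped slightly for IRF3 in caSmad3 cells. The difference between the groups was not tested.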

How the data were processed

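The authors deposited 1 peak list per library, with the position of each peak in bases and no score or read count, as the columns of the files show. Bowtie2 2.2.2.6, MACS2 2.1.0 and the genome build hg38 are named in the submitters' processing notes. Calling thresholds and the use of an input control are, for these lists, not given in the sources used here, and no input library was analysed here, so background from open chromatin was not measured.

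Genes came from RefSeq (GRCh38.p14, the same assembly as hg38), without the mitochondrial genome. Peak starts were converted to 1-based positions. Distances ran from the nearest base of a peak to either gene end, with a limit of 1 kb. Starts and strands came from the promoter table. Shares have exact Clopper-Pearson intervals (SciPy 1.17.1, 95%), and no test was made because each group had 1 library. Intervals cover counting error only. The distance and overlap routines were tested on simulated data. The members and gene lists were chosen with earlier results of these data known. Named genes followed a rule: members in 1 IRF3 list only (of those in caSmad3 cells only, the 10 widest), with any Smad3 peak, with the 10 widest IRF3 peaks in caSmad3 cells, with several IRF3 peaks or with no peak within 10 kb, and, per pathway list, up to 5 genes each with a Smad3 peak or in 1 IRF3 list only. Members narrower in caSmad3 cells, those near the limit, MRPS7, and pathway genes in both or no lists were named after their values were seen. An item that the rule names is not reported here.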

Additional observations from a re-analysis of the deposited data

How the results depend on the processing

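Of 56 recomputed counts, 49 stayed within 1.5 times the reported count. The 49 include the Smad3 counts of HA cells, which were 0 throughout. Those could not rise where a setting narrowed the limit or kept fewer peaks. The share of members was above that of other genes for both IRF3 lists and for Smad3 in caSmad3 cells under each of the 7 settings: as reported, limits of 500 bases and 10 kb, peak centres, transcript starts only, the nearest gene only and the wider 50% of peaks. No intervals were computed for the changed settings, so only the direction of the gap was compared. With the wider 50% of peaks, members with an IRF3 peak in HA cells numbered 20 (26.0%; other genes 9.17%) and with a Smad3 peak in caSmad3 cells 8 (10.4%; other genes 5.32%). In the same setting 18 members were in both IRF3 lists, 2 in HA cells only and 32 in neither. Requiring an overlap of 50% of both peaks left 15 of the 37 members in both IRF3 lists (36 as reported) and 6 of the 18 with Smad3 and IRF3 (18 as reported). These settings keep fewer peaks or overlaps by construction. No paired analysis was possible because each group had 1 library. Read depth is unknown, so a missing peak is no measure of binding.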
